A study of Homo sapiens with 2 samples.

Results

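IFI6, IFI27, IFI27L1 and IFI27L2 encode the human members of a family of small hydrophobic proteins. All 4 genes had a probe set in the deposited expression table, and the genes were followed through every probe set that the platform annotation assigned to 1 of them alone. This gave 4 probe sets, 1 per gene, among 19775 genes with a named probe set, and 0 probe sets were annotated to a family member together with another gene. The members are defined by name, and no measured value enters that definition, although the family was picked with earlier results of these data known.

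The samples were 2 cultures of Huh-7, an established human hepatoma cell line. The interferon-alpha culture was incubated for 24 hours and then given fresh medium with recombinant human interferon-alpha 2b for 6 hours, at 100 U/mL, and the untreated culture received fresh medium without it. Each culture was read on 1 Affymetrix array, so a difference between them has no replicate check, no test was possible and no p-value is given. The lack of replicates is a limit of every value here, and the harvest time of the untreated culture is not given in the sources used here.

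Type I interferon binds its receptor at the cell surface and activates the kinases JAK1 and TYK2, which lead to assembly of a transcription factor complex that contains IRF9. That complex binds the interferon-stimulated response element, a DNA motif in the promoters of interferon-stimulated genes. IFI6 (also known as G1P3 or 6-16) is a membrane protein found in mitochondria and the endoplasmic reticulum that counters apoptosis and restricts flaviviruses. IFI27 (ISG12A) is a mitochondrial and nuclear membrane protein linked to sensitivity to apoptosis, and its RNA is widely used as a marker of interferon exposure in blood and liver. IFI27L1 (ISG12C) and IFI27L2 (ISG12B) are related genes on either side of IFI27 on chromosome 14, whereas IFI6 lies on chromosome 1.

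The promoters of the 4 genes are shown because they differ in matches to the interferon-stimulated response element. Whether these matches bear on the measured ratios was not tested. Each sequence is the 250 bases before a transcription start, taken from RefSeq with the build GRCh38.p14 and written in the direction of the gene. Capitals mark matches to the core of the interferon-stimulated response element, searched as GAAA, any 2 bases and GAAA again, on both strands. The windows are chr1:27672193-27672442 (minus strand) for IFI6, chr14:94110486-94110735 (plus strand) for IFI27, chr14:94081060-94081309 (plus strand) for IFI27L1 and chr14:94129605-94129854 (minus strand) for IFI27L2.
IFI6: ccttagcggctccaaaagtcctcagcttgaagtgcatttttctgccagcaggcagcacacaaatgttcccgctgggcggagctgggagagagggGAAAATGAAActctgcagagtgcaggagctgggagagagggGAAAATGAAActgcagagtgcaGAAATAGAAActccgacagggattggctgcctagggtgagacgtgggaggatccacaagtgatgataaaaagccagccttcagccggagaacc
IFI27: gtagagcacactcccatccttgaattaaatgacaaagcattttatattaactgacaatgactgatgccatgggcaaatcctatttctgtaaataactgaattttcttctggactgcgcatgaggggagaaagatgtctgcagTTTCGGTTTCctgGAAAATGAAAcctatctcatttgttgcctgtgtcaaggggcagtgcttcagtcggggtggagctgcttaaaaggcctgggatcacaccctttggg
IFI27L1: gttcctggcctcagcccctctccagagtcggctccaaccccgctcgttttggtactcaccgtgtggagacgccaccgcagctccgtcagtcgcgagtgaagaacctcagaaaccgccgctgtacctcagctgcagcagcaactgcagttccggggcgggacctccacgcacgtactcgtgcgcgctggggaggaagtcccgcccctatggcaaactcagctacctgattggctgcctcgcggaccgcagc
IFI27L2: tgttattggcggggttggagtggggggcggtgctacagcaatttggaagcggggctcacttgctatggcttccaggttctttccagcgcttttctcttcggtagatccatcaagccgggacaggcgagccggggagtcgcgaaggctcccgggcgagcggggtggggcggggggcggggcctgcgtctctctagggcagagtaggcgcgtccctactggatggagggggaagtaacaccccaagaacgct

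The IFI6 window held 3 matches, all on the strand of the gene. They began 156, 115 and 93 bases before the start. The matches farthest from the start lie in an exact repeat of 29 bases, ggagctgggagagagggGAAAATGAAAct, whose copies begin 173 and 132 bases before the start. The IFI27 window held 2 matches, 1 on the opposite strand beginning 108 bases before the start and 1 on the gene's strand beginning 95 bases before it. RefSeq lists a second start for IFI27 farther downstream, and the same matches then lie 187 and 174 bases before it. The windows of IFI27L1 and IFI27L2 held 0 matches, which says only that these letters are not in these windows.

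For scale, 3.7% of the 27305 genes with a promoter in the table held at least 1 match in a window of this length, 0.27% held at least 2 and 8 genes (0.029%) held at least 3. A match is a description of sequence and does not show that a protein binds there.

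**Figure D1:**
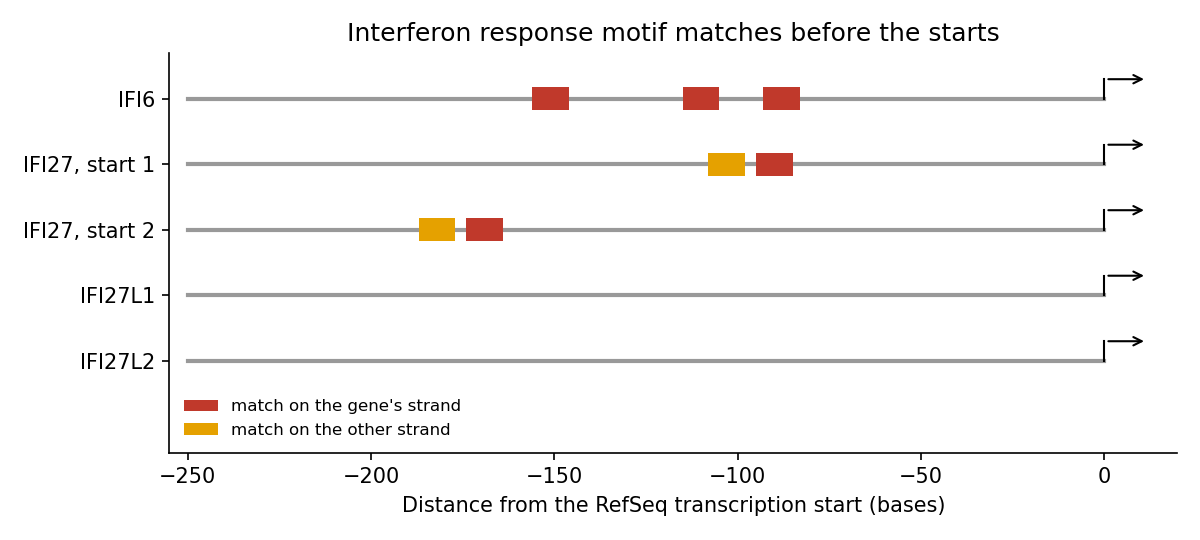
Positions of matches to the response element core (GAAA, any 2 bases, GAAA) in the 250 bases before the RefSeq starts of the 4 genes, with IFI27 shown for both of its listed starts. The x axis is the distance from the start in bases, each block is 1 match, and the arrow marks the start. IFI6 has 3 blocks, IFI27 has 2 at each start, and IFI27L1 and IFI27L2 have 0.

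IFI6 was the only member of the family that differed by 2-fold between the cultures. Its probe set had an intensity of 558.7 on the interferon-alpha array, against 67.0 on the untreated array. This is a ratio of 8.34-fold, or 3.06 on the log2 scale. The untreated value was 1.38 times the floor used here, an intensity of 48.46, below which a value was treated as not distinguishable from background. The interferon-alpha value was 11.53 times the floor.

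IFI27 remained dim in both cultures. Its probe set had an intensity of 34.5 on the interferon-alpha array, against 25.1 on the untreated array. These are 71.2% and 51.7% of the floor, so no fold is given. The interferon-alpha value was the higher by 9.4 intensity units. Among the 1000 probe sets nearest to it in brightness, 23 (2.3%) had a ratio at least as high before any floor was set, which describes the spread within these arrays and is not a replicate error. A probe set below the floor does not show that a transcript is absent.

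The members flanking IFI27 exceeded the floor in both cultures and differed little between them. IFI27L1 had an intensity of 99.9 on the interferon-alpha array and 101.8 on the untreated array, a log2 ratio of -0.03. IFI27L2 had 122.3 with interferon-alpha and 131.3 untreated, a log2 ratio of -0.10. Both values lay inside the central 95% of log2 ratios of the 1000 probe sets nearest in brightness, which ran from -0.33 to 0.48 around IFI27L1 and from -0.33 to 0.38 around IFI27L2. The suffix of the IFI27L2 probe set identifier (x) marks probes that can also bind other transcripts, so its value is uncertain.

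**Figure D2:**
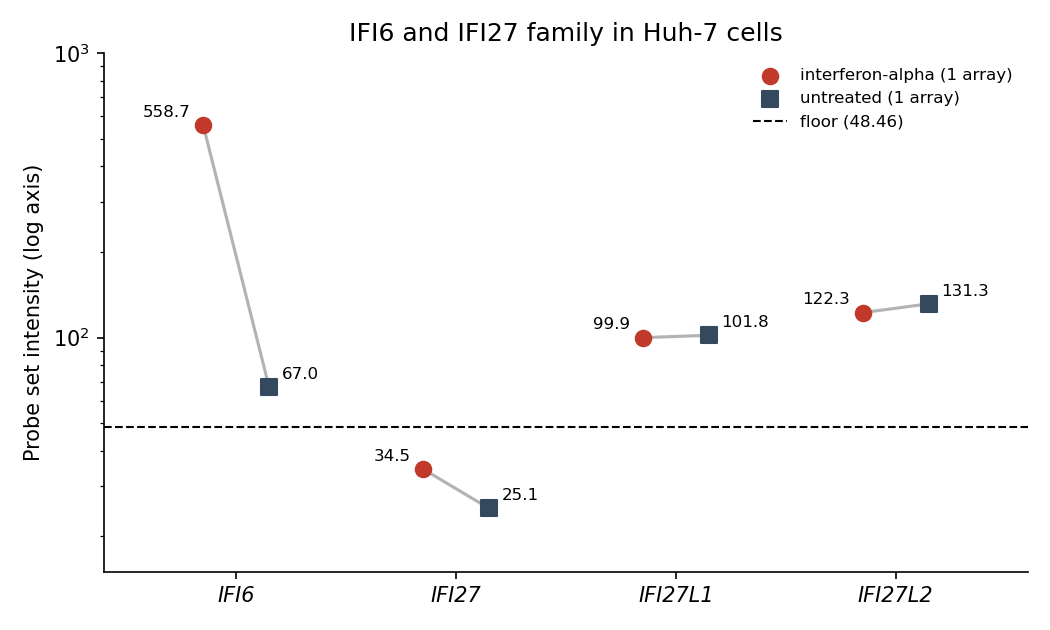
Intensity of the 1 probe set of each gene (log axis), with the interferon-alpha array as circles on the left of each pair and the untreated array as squares on the right. The dashed line is the floor of 48.46. IFI6 is at 558.7 and 67.0, both IFI27 points lie below the floor, and the points of IFI27L1 and IFI27L2 are nearly level.

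Of the 4 members, 3 exceeded the floor in at least 1 culture, and 1 of these was at least 2-fold higher with interferon-alpha, while 0 were at least 2-fold lower. Over all 13269 genes counted in the same way, 57 (0.430%) were at least 2-fold higher and 0 (0%) were lower to that extent. All counted genes together had a median log2 ratio of 0.03. With 1 called member among 3, the share in the family rests on IFI6 alone.

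The log2 ratio of IFI6 exceeded that of IFI27L1 by 3.09 and that of IFI27L2 by 3.16. Among the 12742 genes that exceeded the floor in both cultures, IFI6 had the 11th highest ratio. The central 95% of the log2 ratios of those genes lay between -0.29 and 0.30. Among all 13269 counted genes IFI6 ranked 15th, and there the ratios of induced genes with an untreated value below the floor are lower bounds. Of the 1000 probe sets nearest to IFI6 in brightness, 2 had a ratio at least as high before the floor, and both belonged to known interferon-stimulated genes, the dynamin-like GTPase gene MX1 and SP110, a gene of nuclear bodies. These 2 were singled out after their values were seen.

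The 5 genes whose pattern was nearest to that of IFI6 were SP110, PARP14, PARP9, RIGI and IFIT3. Nearness was the distance in untreated log2 intensity and log2 ratio together, over 12741 other genes and only these 2 arrays. SP110 (distance 0.21) had an intensity of 621.8 with interferon-alpha and 77.1 untreated on its chosen probe set. PARP14, an ADP-ribosyltransferase (distance 0.21), had 671.3 with interferon-alpha and 69.8 untreated. PARP9, an inactive relative of those enzymes (distance 0.24), had 660.5 with interferon-alpha and 67.0 untreated. Farther away were the RNA sensor RIGI (0.51, 5.90-fold) and the antiviral protein gene IFIT3 (0.55, 5.79-fold). On the chosen probe sets, all 5 ratios lay between 5.79-fold and 9.86-fold, a closeness that choosing genes by their ratio builds in. Another probe set of IFIT3 had a log2 ratio of 3.83.

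**Figure D3:**
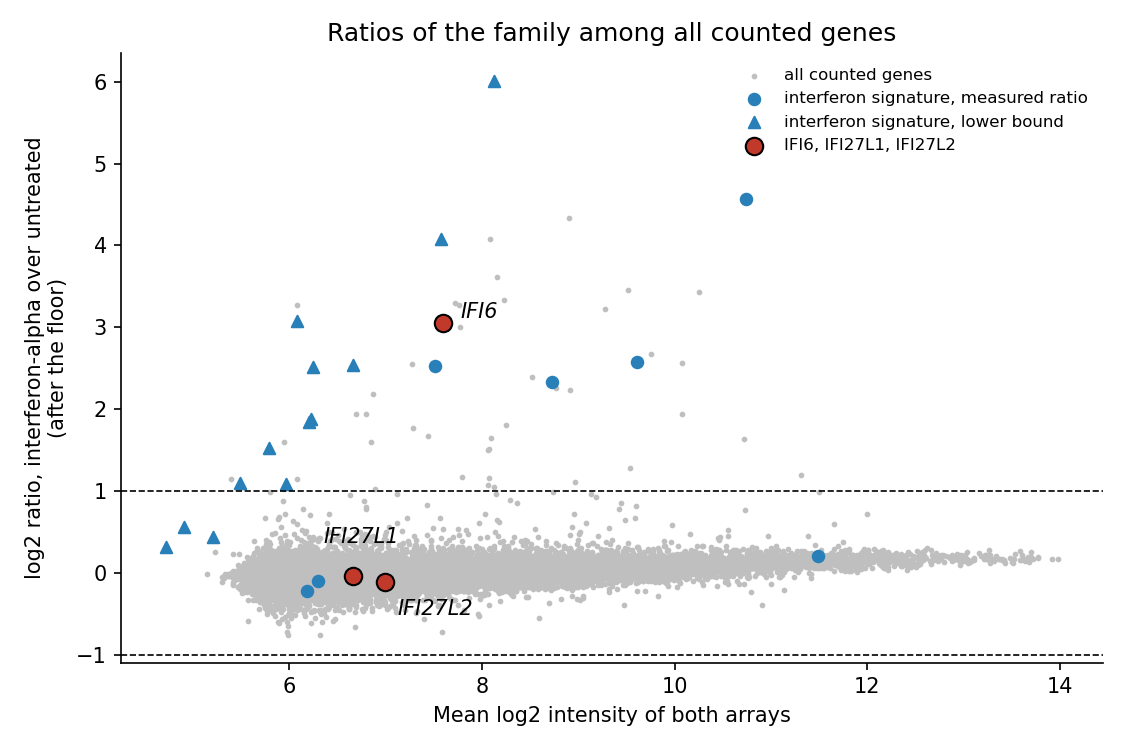
The log2 ratio of the interferon-alpha array over the untreated array (y axis) against the mean log2 intensity of both arrays (x axis) for 13269 counted genes in grey. Dashed lines mark 2-fold. IFI6 lies at 3.06, among signature genes in blue, while IFI27L1 and IFI27L2 lie inside the grey band, and IFI27 is not drawn because it was below the floor on both arrays.

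IFI6 and IFI27 are usually scored together with other genes of the interferon signature, a set of transcripts that rise in many tissues after exposure. Of 22 other signature genes, 20 were counted, and 14 of these were at least 2-fold higher with interferon-alpha, against 0.430% of all counted genes. Their median log2 ratio was 1.86, against 0.03 for all counted genes. In 10 of the 14 the untreated value was below the floor, so that their folds are lower bounds. On the chosen probe sets, ISG15 alone had a higher ratio than IFI6 among the 7 signature genes that exceeded the floor in both cultures. ISG15, a ubiquitin-like modifier, was 23.73-fold higher (8331.7 with interferon-alpha and 351.2 untreated). With the bounds included, IFI6 ranked 5th of 21 on the chosen probe sets. IFIT1 (at least 64.48-fold), MX1 (at least 16.89-fold) and CMPK2 (at least 8.48-fold) also exceeded the 8.34-fold of IFI6. Another probe set of IFIT3, not used in this ranking, had a log2 ratio of 3.83, above the 3.06 of IFI6. The other 6 genes measured in both cultures included USP18, the protease that removes ISG15 (5.96-fold), and the ISG15 ligase HERC5 (5.07-fold).

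IFI27 was not the only signature gene that was dim or near the floor. IFI44 had an intensity of 11.3 with interferon-alpha and 10.8 untreated, and XAF1, a gene linked to apoptosis, had 48.1 with interferon-alpha and 39.6 untreated, so both stayed under the floor throughout. Another probe set of XAF1 exceeded the floor with interferon-alpha only, and its log2 ratio of 0.07 is a lower bound. IFI44L had 60.4 with interferon-alpha and 11.5 untreated, which is at least 1.25-fold higher. The antiviral enzyme gene RSAD2 had 65.9 with interferon-alpha and 20.9 untreated, at least 1.36-fold higher, and the helicase gene DDX60 had 72.1 with interferon-alpha and 12.5 untreated, at least 1.49-fold higher. These bounds are limited by the floor and do not show that IFI44L, RSAD2 or DDX60 differed by less than 2-fold. The signature genes that exceeded the floor in both cultures and were under 2-fold were SPATS2L (log2 0.21), LY6E (log2 -0.09) and SIGLEC1 (log2 -0.21), a macrophage receptor.

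Promoter matches were present both in genes of this set that were called and in genes that were not. Of the 16 signature genes with a promoter in the table, 11 (68.8%) held at least 1 match. For scale, a match was held by 3.1% of counted genes with a promoter, and by 58.3% of those at least 2-fold higher. Among the 16 signature genes, 7 of the 10 that were at least 2-fold higher held a match. So did 4 of the other 6, namely IFI44, IFI44L, RSAD2 and DDX60. IFI44 and IFI27, with 1 and 2 matches, were under the floor in both cultures, whereas IFI44L, RSAD2 and DDX60 exceeded it with interferon-alpha. The ratios of IFI44L, RSAD2 and DDX60 are lower bounds, so these genes are not shown to be under 2-fold. With a pseudocount of 1 or 16 in place of the floor, 17 signature genes were at least 2-fold higher. The difference between the shares with a match, 7 of 10 and 4 of 6, was not tested.

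Across all named genes with a promoter, 36 counted genes held at least 2 matches, and 11 of these (30.56%) were at least 2-fold higher. A further 11 genes with at least 2 matches, IFI27 among them, were under the floor in both cultures. Among counted genes with 1 match 17 of 292 (5.82%) were at least 2-fold higher. Among those with 0 matches 20 of 10355 (0.19%) were, against 0.430% of all counted genes. Another 183 genes with 1 match and 4507 with 0 matches were under the floor in both cultures. A gene dim without interferon-alpha was counted only if it exceeded the floor with it, so these shares depend on the floor. Whether the matches bear on the ratios was not tested. The 6 named genes with at least 3 matches were all counted. IFI6, HERC5 and the RNA sensor gene IFIH1 had log2 ratios of 3.06, 2.34 and at least 3.28, whereas C2CD2, DAGLB and ZNF583 had 0.05, -0.09 and -0.06.

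The genes next to the family on the chromosomes showed no 2-fold difference. This was close to the shares over all counted genes, 0.430% higher and 0% lower. In the RefSeq gene table the 5 nearest genes with a named probe set were taken on each side. Of the 10 neighbours of IFI6, 7 were counted, with log2 ratios from -0.20 to 0.41. The highest was FAM76A, at 233.4 with interferon-alpha and 175.3 untreated (1.33-fold). The nearest such gene on the other side of IFI6, the Src-family kinase gene FGR, stayed under the floor, at 22.6 with interferon-alpha and 17.5 untreated. Around the IFI27 cluster 8 of 10 neighbours were counted, with log2 ratios from -0.31 to 0.17. The helicase gene DDX24, next to IFI27L1, had 559.3 with interferon-alpha and 544.9 untreated (log2 0.04). The alpha-1-antitrypsin gene SERPINA1, the brightest of these neighbours and a product of hepatocytes, had 8407.0 with interferon-alpha and 7472.7 untreated (log2 0.17).

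**Figure D4:**
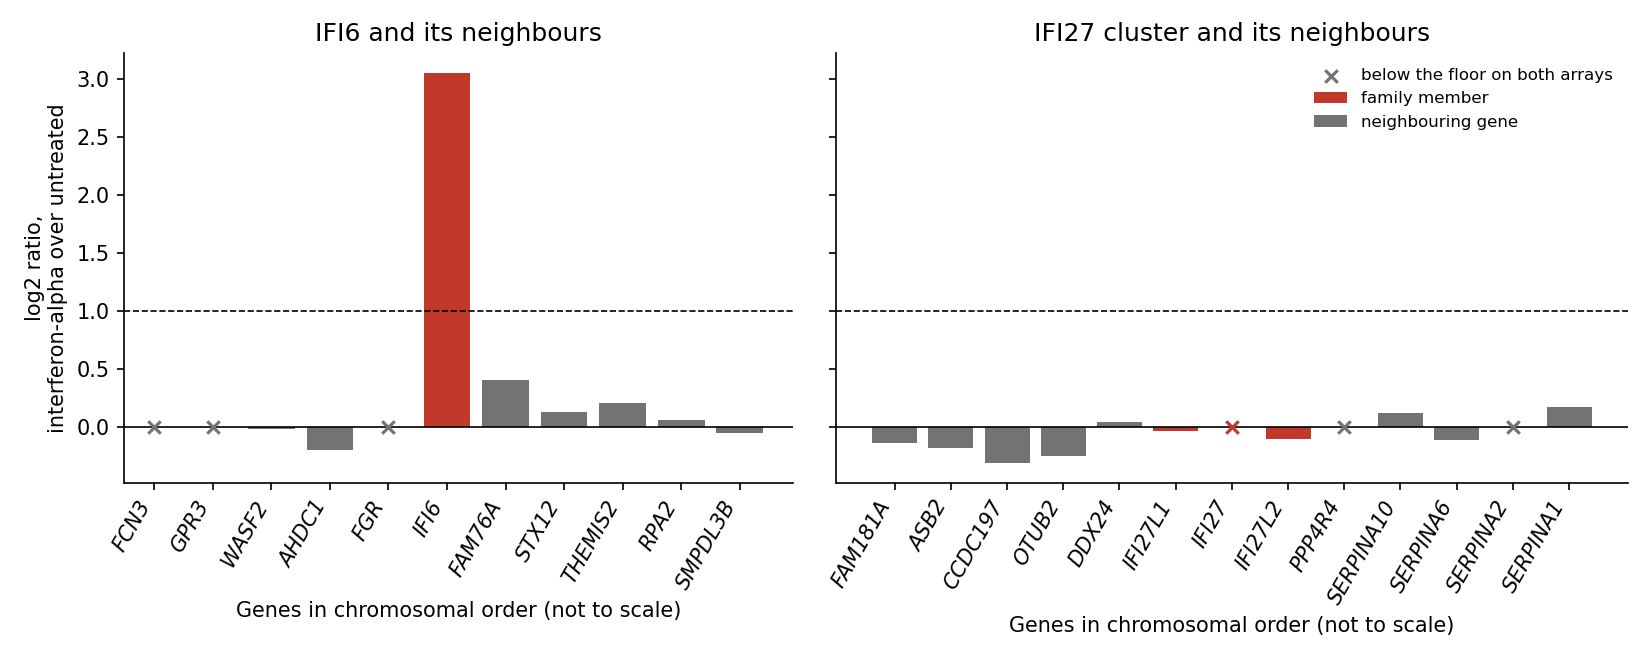
The log2 ratio of the interferon-alpha array over the untreated array for IFI6 and 10 neighbours (left) and for the IFI27 cluster and 10 neighbours (right), in chromosomal order and not to scale. Family members are red and neighbours grey, crosses mark genes under the floor in both cultures, and the dashed line is 2-fold. The bar of OTUB2 rests on an interferon-alpha value below the floor and so is a bound. Only IFI6 passes the line.

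Among genes that carry the interferon signal to the response element, IRF9, the DNA-binding subunit, was 20.09-fold higher, at 2143.1 with interferon-alpha and 106.7 untreated. The receptor chains IFNAR1 and IFNAR2 had log2 ratios of -0.10 and -0.11, and the kinases JAK1 and TYK2 had 0.12 and 0.01. Thus 1 of 5 counted genes of this list was at least 2-fold higher, against 0.430% of all counted genes. The other 2 of its 7 genes had no value here.

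Other small membrane proteins induced by interferon were above 2-fold in 3 of 5 genes, against 0.430% of all counted genes. These were IFITM3 (11.03-fold), IFITM2 (4.79-fold) and IFITM1 (at least 3.04-fold), which restrict virus entry and whose separate values are uncertain because the genes share sequence. The other 2 were TMEM140 (1.95-fold) and BST2, the tetherin gene (1.72-fold). The list's median log2 ratio was 1.60, and the list was chosen with earlier results of these data known.

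Genes reported to act with IFI6 or IFI27 differed by less than 2-fold in 3 of 4 cases. The chaperone gene HSPA5 (BiP), described as a partner of IFI6, had 5577.6 with interferon-alpha and 4839.7 untreated, a log2 ratio of 0.20. The ubiquitin ligase subunit gene SKP2 and the nuclear receptor gene NR4A1, both described with IFI27, had log2 ratios of 0.18 and 0.01. TNFSF10, which encodes the death ligand TRAIL, was at 107.3 with interferon-alpha and 42.9 untreated, at least 2.21-fold higher. It was 1 of 4 counted genes past 2-fold in this list, against 0.430% of all counted genes at least 2-fold higher. Of 11 counted genes of mitochondrial apoptosis, 0 were at least 2-fold changed, close to the shares over all counted genes (0.430% higher and 0% lower). Their log2 ratios ran from -0.06 (CASP9) to 0.20 (BCL2), with a median of 0.11.

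Marker genes of several cell types were read in both cultures, which cannot tell Huh-7 from other hepatoma lines. All 10 measured hepatocyte and hepatoma markers exceeded the floor in both cultures, among them ALB at 14587.7 with interferon-alpha and 12212.3 untreated. The leukocyte markers PTPRC and CD3E and the endothelial markers CDH5 and KDR were under the floor in both cultures, although LYZ, counted here as a leukocyte marker, had 2271.2 with interferon-alpha and 2064.1 untreated. Of the listed markers with a value, 2 of 5 leukocyte, 2 of 4 endothelial and 1 of 4 stellate and fibroblast markers were under the floor in both. The others exceeded it in at least 1 culture, such as CD14 (76.5 with interferon-alpha and 91.1 untreated), PECAM1 (152.4 and 158.0) and COL1A1 (186.6 and 176.3). For 1 of the 6 listed leukocyte markers there was no value here. Summed intensities of the leukocyte, endothelial, and stellate and fibroblast markers were 2475.9, 255.9 and 393.8 with interferon-alpha. Untreated, these sums were 2301.2, 282.7 and 389.5. Of these markers 0 differed by 2-fold, close to the shares over all counted genes (0.430% higher and 0% lower).

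The direction and size of the IFI6 difference were similar under the other ways of processing that were tried, with log2 ratios from 2.63 to 3.08. The small ratios of the other genes had no settled size. The log2 ratio of IFI27L1 ran from -0.45 to 0.00 and that of IFI27L2 from -0.53 to -0.08. The lowest values of all 3 genes came from centring on the hybridisation controls, bacterial and phage RNAs added to each sample, which were brighter on the interferon-alpha array by a median log2 ratio of 0.43. That centring moved the median of all counted genes to -0.38, so IFI27L1 and IFI27L2 stayed close to it.

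**Figure D5:**
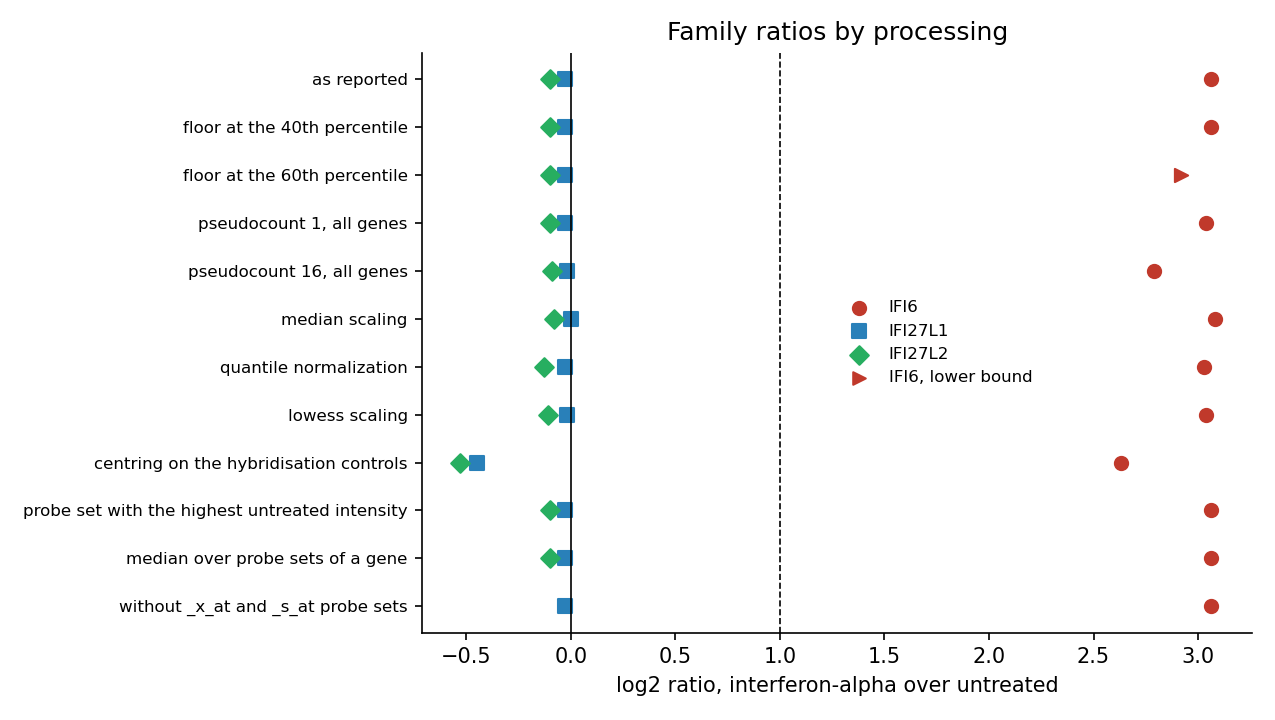
The log2 ratio of the interferon-alpha array over the untreated array for IFI6, IFI27L1 and IFI27L2 as reported (top) and under 11 other ways of processing. The solid line is 0 and the dashed line is 2-fold, and a triangle is a lower bound. IFI6 stays between 2.63 and 3.08, and the others stay between -0.53 and 0.00.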

How the data were processed

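Total RNA of 2 Huh-7 cultures (6 µg each, per the labels' protocols) was read on 1 Affymetrix array per condition. GCOS, Affymetrix's scanner software, made the values, per the submitters' processing notes. Its version, how it corrected background, summarised probes and scaled the arrays, is not given in the sources used here. Linear intensities were deposited for 54675 probe sets, 62 of them controls. Array medians were 48.04 with interferon-alpha and 48.84 untreated.

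Gene names came from the platform annotation (41091 probe sets with 1 gene), with symbols updated through the gene ID. The 50th percentile of both arrays together (48.46, controls left out) served as a floor, values below it were raised to it, and log2 ratios of interferon-alpha over untreated were taken. Each gene was represented by its brightest probe set by mean log2 intensity, and was counted if that lay above the floor on at least 1 array. Called means at least 2-fold. With 1 array per condition there is no test, and the number of arrays limits the precision. The ratio and calling steps were tested on simulated data. Every simulated probe set had the same spread, taken from genes above the floor in both cultures. That setting does not describe probe sets near or under the floor, such as that of IFI27.

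The members, gene lists and rules were chosen with earlier results of these data known. Named genes were the 4 members, the gene lists, the 5 genes nearest to IFI6 by untreated log2 intensity and log2 ratio, and 5 neighbours on each side of each locus. The nearest genes were sought among those exceeding the floor in both cultures. Promoter windows were 250 bases from RefSeq (GRCh38.p14). No build is attached to the array values. Alternatives were the floor, pseudocounts, scaling, probe set choice and removal of probe sets that can cross-hybridise. Listed genes without a probe set named to 1 gene are not reported here. Python 3.11.15, numpy 2.4.6, pandas 2.3.3 and statsmodels 0.14.6 were used.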

Additional observations from a re-analysis of the deposited data

How the results depend on the processing

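IFI6 was at least 2-fold higher, as the only family member, under all 11 alternatives. Its log2 ratio fell short of the reported 3.06 by more than the spread of all genes (robust SD 0.13) in 3 of them: 2.92 with the floor at the 60th percentile, which the untreated value did not reach, so that the ratio is a lower bound, 2.79 with a pseudocount of 16, and 2.63 with centring on the hybridisation controls. That centring gave -0.45 for IFI27L1, -0.53 for IFI27L2 and 6 genes at least 2-fold lower, as its constant shift implies. The floor at the 40th percentile and the pseudocount of 1 each gave 1 gene at least 2-fold lower. IFI27 on the interferon-alpha array stood at 0.71 times the floor as reported, at 0.47 times with the higher floor, 0.61 times after centring on the controls and 1.08 times with the lower floor. With the lower floor it was counted, with a log2 bound of 0.11, and with pseudocounts of 1 and 16 its log2 ratio was 0.45 and 0.30. Genes at least 2-fold higher numbered 38 to 64, and signature genes 11 to 17. IFI27L2 has no value without probe sets that can cross-hybridise. Each member has 1 probe set, so the choice of probe set could not change its value. No paired analysis was possible because each condition has 1 array.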
